A study of Mus musculus with 4 samples.

Results

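Melanocytes are neural crest cells that make the pigment melanin, and in mice of dark coat colour they also settle in the heart, in the valves, the septum and the atria. The transcription factor Mitf and the receptor kinase Kit set up the lineage. Tyr, Tyrp1 and Dct are the enzymes of melanin synthesis, Pmel and Mlana are proteins of the pigment granule (the melanosome), and Slc45a2 and Slc24a5 are its transporters. Dct-expressing, melanocyte-like cells have been described in mouse atria and pulmonary veins. These 9 genes are described here in mouse hearts at 12 months and at 8 weeks. They were taken by name from a table of 28723 genes, all 9 had 1 entry each, and they were chosen by a measured value: Mlana has one of the largest fold changes between the ages, in place 19 of 12027 genes tested from the highest down. It is 1 of the 26 genes (0.216%) with a fitted fold of at least 64. The 12-month against 8-week values of the members are therefore given as a description, with no test.

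Poly(A) RNA was sequenced from hearts of C57BL/6J mice, untreated and kept in a specific-pathogen-free unit, in 2 libraries from mice aged 12 months and 2 from mice aged 8 weeks. The genotype label is WT in all 4 libraries, yet the 12-month libraries are titled FLOX5 and FLOX6 (here 12 months replicates 1 and 2) and the 8-week libraries C4 and C5 (8 weeks replicates 1 and 2). The sources used here do not say what these titles stand for, so age cannot be told apart from whatever else they mark, nor do they say whether each library is a separate animal. The 4 libraries held between 51328364 and 63828074 estimated counts. The counts run in steps: 4, 8 and 12 counts were each held by more genes than the neighbouring values, by 2.25 to 2.51 times for 4, by 1.62 to 1.92 times for 8 and by 1.17 to 1.51 times for 12. One sequenced fragment is therefore taken here as worth about 4 counts, and intervals were computed on fragments. Such intervals cover counting error only. The floor of detection used is 12 counts, about 3 fragments, which is 0.19 to 0.231 CPM (counts scaled to a common library size) depending on the library. General heart muscle genes were abundant in every library, with Myh6 at 3520 and 3360 FPKM at 12 months and at 3170 and 3060 FPKM at 8 weeks (FPKM, fragments per kilobase of transcript, scaled to sequencing depth).

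The 9 genes did not all differ between the ages in the same direction. The depth-scaled level of Mlana, pooled over the libraries of an age, was 97.7 times as high at 12 months as at 8 weeks. Dct was higher in both 12-month libraries, but by a margin in only 1 of them. Kit and Slc24a5 were lower in both, and the other 5 genes had overlapping ages. Of all 28723 genes, 23.3% were higher in both 12-month libraries and 26.0% lower, so the ages did not overlap in 49.4%. Nothing is read from the counts of members beside these shares. None of the 9 was at 3 counts or less in all 4 libraries. Mlana and Slc45a2 were at 3 counts or less in 1 library each, and 4 genes (Mlana, Tyr, Tyrp1 and Slc45a2) were at or under 12 counts in at least 1 library. The other 5 lay above 12 counts in all libraries. Of the genes for making pigment, Tyr, Tyrp1 and Slc45a2 had no more than 5 fragments in any library, whereas Dct had 137 to 310. Mitf had 427 to 526 fragments, and Mlana had 80 and 35 at 12 months. The members are called pigment cell genes below because of what they are known for elsewhere.

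**Figure D1:**
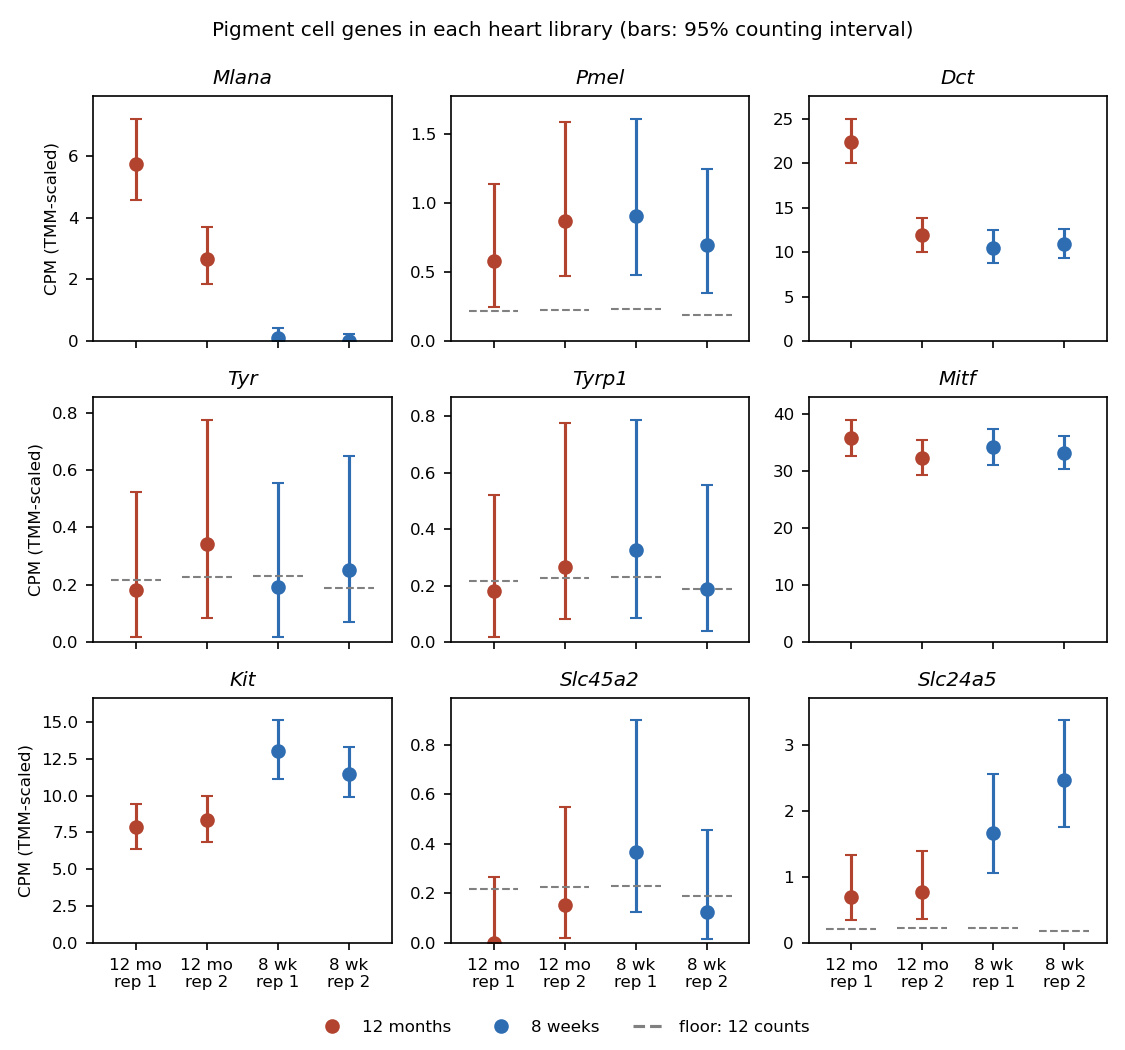
Level of each pigment cell gene in the 4 heart libraries, in CPM after TMM scaling, which evens out the libraries. Points are single libraries, bars are exact 95% Poisson intervals on fragments, and dashed lines in the panels of low genes mark the floor of 12 counts. Mlana stands at 5.74 and 2.67 CPM at 12 months and at 0.0962 and 0 CPM at 8 weeks, while Tyr and Tyrp1 stay near the floor in all 4.

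Mlana encodes melan-A, a small protein of the early melanosome that is widely used as a melanocyte and melanoma antigen. The gene lies on chromosome 19 at 29697824 to 29708634 on the plus strand of GRCm38, its longest transcript has 5 exons and 906 nt, and no other annotated gene overlaps it. Mlana had 318 and 141 counts in the 12-month libraries, against 5 and 0 counts in the 8-week libraries. That is about 80 and 35 fragments at 12 months and 1 and 0 fragments at 8 weeks. Both 12-month libraries were thus far above the floor and both 8-week libraries below it, and the 12-month libraries differed from each other by 2.15 times in CPM. Mlana averaged 3.71 ± 1.86 FPKM at 12 months and 0.0366 ± 0.0518 FPKM at 8 weeks (mean ± SD, n = 2 libraries each). Because its 8-week mean is below 1 FPKM, it passed the expression minimum (a mean of 1 FPKM over all 4 libraries) only through its 12-month values. The pooled ratio of 12 months to 8 weeks was 97.7, with a counting interval from 21.5 to 4880 since it is set against about 1 fragment. The fitted log2 fold change was 6.49 ± 0.96 (SE, edgeR). It was 2.12 on the log2(FPKM + 1) scale and 4.76 on the log2(FPKM + 0.1) scale.

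Genes of atrial muscle followed Mlana most closely over the 4 libraries. Likeness was measured as the Euclidean distance between log2 CPM profiles, each centred on its gene's mean, among 10696 tested genes left after predicted genes, pseudogenes and antigen receptor segments were set aside. With 4 libraries, 2 of them at or near 0 for Mlana, this is a description of these libraries only. The nearest gene was Myl7, the atrial regulatory myosin light chain, at a distance of 0.47 log2 units. Mybphl, a sarcomere protein enriched in the atria, stood at 0.514, Sln, the sarcolipin that inhibits the calcium pump in atria, at 0.603, and Myl4, the atrial essential light chain, at 0.865. The fifth was Ucp1, the uncoupling protein of brown fat, at 1.12. The other pigment cell genes above the expression minimum stood at 5.42 (Dct, place 926), 6.01 (Mitf, place 5113) and 6.61 (Kit, place 9568). This distance grows with the difference in fold change, and Mlana was chosen for a large one. Genes with a small fold change are therefore far from it by construction, and nothing is read from these places.

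**Figure D2:**
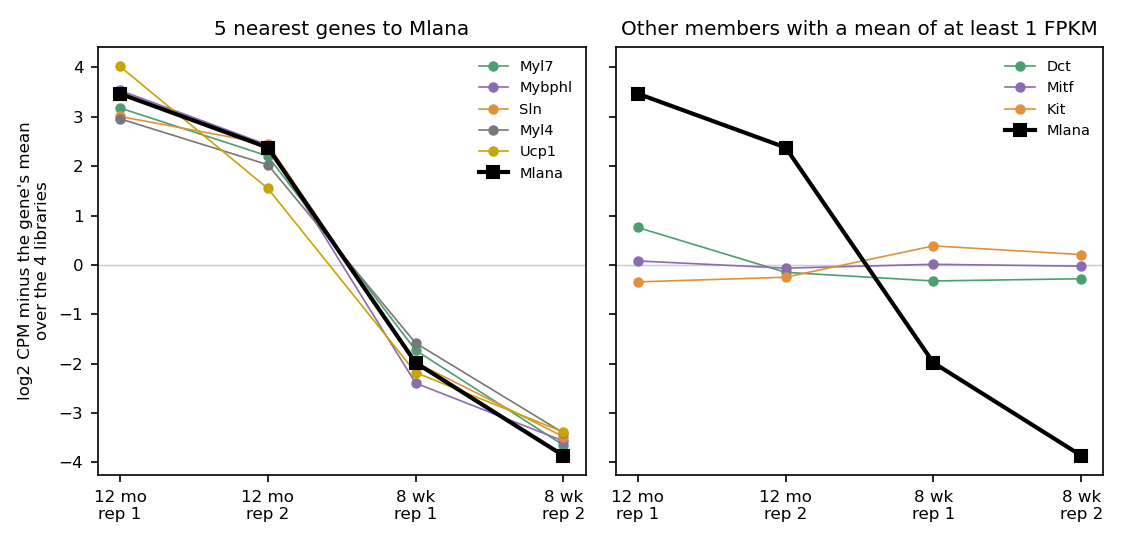
Profiles over the 4 libraries, as log2 CPM minus each gene's own mean. Lines join the points of 1 gene and carry no order of replicates. On the left the 5 genes nearest to Mlana lie within 0.47 to 1.12 log2 units of it, and on the right Dct, Mitf and Kit stay within about 1 log2 unit of their means.

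Mlana counts were also set against the counts of these 4 atrial genes, which were chosen for their likeness to Mlana, so that similar ratios follow in part from the choice and are read as no support. Mybphl had 7282 and 3210 counts at 12 months, against 110 and 58 counts at 8 weeks. Per 100 Mybphl counts there were 4.37 (95% counting interval 3.48 to 5.47) and 4.39 (3.04 to 6.07) Mlana counts at 12 months, and 4.55 (0.0921 to 20.3) and 0 (up to 25.4) at 8 weeks. The 4 intervals overlap, and the 2 at 8 weeks are wide because they rest on 1 fragment and on none. Per 100 Myl7 counts there were 0.973 (0.776 to 1.22) and 0.89 (0.615 to 1.23) Mlana counts at 12 months, and 0.491 (0.00994 to 2.19) and 0 (up to 4.54) at 8 weeks. Per 100 Sln counts there were 3.73 (2.98 to 4.67) and 2.56 (1.77 to 3.54) at 12 months, and 1.99 (0.0403 to 8.88) and 0 (up to 13.9) at 8 weeks. Per 100 Myl4 counts there were 0.683 (0.545 to 0.855) and 0.607 (0.42 to 0.838) at 12 months, and 0.267 (0.00541 to 1.19) and 0 (up to 2.3) at 8 weeks. The 8-week ratios ran below the 12-month ones for Myl7, Sln and Myl4, within wide intervals, and the 2 ages cannot be told apart in these ratios.

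Most atrial muscle markers were higher at 12 months, as Mlana was. Of 14 listed, 13 passed the expression minimum, 12 of them with an 8-week mean of at least 1 FPKM. The exception was Bmp10, with 46 and 1945 counts at 12 months, against 6 and 15 counts at 8 weeks. It passed only through 12 months replicate 2. In edgeR's quasi-likelihood test (Benjamini-Hochberg adjusted over all 12027 genes), 10 of the 13 were called higher at 12 months, where 20.1% of all tested genes were, and 1 was called lower, where 17.5% were. Their median log2 fold change was 2.93, against 0.01 for all tested genes. Bmp10 was among the 10 called higher, at 6.68 ± 1.85. Its call was lost with limma on log2(FPKM + 1) and on log2(FPKM + 0.1), and in edgeR with no minimum (adjusted p = 0.0741). It was also lost without 8 weeks replicate 1 (log2 fold change 6.30) or 8 weeks replicate 2 (7.32). The summed level of the list was 4730 and 1900 FPKM at 12 months, against 342 and 341 FPKM at 8 weeks, with no marker at 0 in any library. Most of each sum was Nppa alone, at 3100 and 972 FPKM at 12 months and at 240 and 275 FPKM at 8 weeks. The even sums at 8 weeks hide differences between these 2 libraries, of 3.81 times in CPM for Myl7 and 3.54 times for Myl4. Stard10, a lipid transfer protein, had a log2 fold change of 2.31 ± 0.18 (adjusted p = 0.0012), and Pam, an enzyme that amidates peptides and the main membrane protein of atrial granules, of 2.86 ± 0.25 (adjusted p = 0.00128). Mybphl (6.02 ± 0.53) and Sln (5.34 ± 0.47) had the same adjusted p of 0.00128. The member that fell was Kcna5, a repolarizing potassium channel, at -0.91 ± 0.12 (adjusted p = 0.00344). The part of atrial tissue in the Mlana difference was not tested.

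Valve and cartilage-like markers, from another place where cardiac melanocytes are known, were higher in part. Of 14 listed, 9 passed the minimum, with a median log2 fold change of 0.91. Of these, 6 were called higher, where 20.1% of all tested genes were, and none lower. Chad, Sox9, Acan, Hapln1 and Col2a1 lay under the minimum with overlapping ages. Fits with a lower minimum or none gave them log2 fold changes of 0.55, -0.00, -0.34, 0.59 and 0.06, and none was called. The 14 summed to 72.9 and 58.8 FPKM at 12 months and to 42.2 and 27.4 FPKM at 8 weeks. Of the 9, 8 had an 8-week mean of at least 1 FPKM. The exception is Cilp2, a cartilage matrix protein, which averaged 2.31 ± 0.553 FPKM at 12 months and 0.139 ± 0.0556 FPKM at 8 weeks (SD, n = 2 each) and so passed the minimum only through its 12-month values. Its log2 fold change was 3.98 ± 0.35 (adjusted p = 0.00128). Fmod, Prg4 and Vcan, matrix proteoglycans, had log2 fold changes of 1.36 ± 0.37, 1.11 ± 0.30 and 0.55 ± 0.16 (adjusted p = 0.0322, 0.0315 and 0.0421). With no expression minimum 1 of the list was called higher, with a minimum of 5 FPKM 2 were, without 12 months replicate 1 2 were, and without 8 weeks replicate 2 3 were. The call of Prg4 was lost in both (adjusted p = 0.0622 and 0.127), and that of Vcan was lost without 12 months replicate 1 (0.104), 8 weeks replicate 1 (0.198) or 8 weeks replicate 2 (0.0812). Their part in the Mlana difference was not tested either.

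The 3 enzymes of melanin synthesis differed from Mlana and from each other. Tyr, tyrosinase, carries out the first and rate-limiting step, Dct (dopachrome tautomerase) and Tyrp1 act after it. In melanocytes all 3 are direct targets of Mitf, which binds an extended E-box called the M-box in their promoters. RefSeq start sites (GRCm38.p6) were held for 6 of the 9 members, in windows from 250 bases before to 50 bases after the start. The core TCATGTG, searched on both strands (CACATGA on the other), was found in 4 of the 6: Tyr, Tyrp1, Dct and Slc24a5. Over all 32851 such windows, 3.77% held it. The 5 windows of Kit and Mitf did not hold these letters. The matches are shown because they let the shared element be set beside the unlike levels of these genes. Each is written 5′ to 3′ on the gene's strand with the 7 matching bases in capitals:
Tyr, chr7:87493517-87493545, minus strand: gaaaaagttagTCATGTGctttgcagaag
Tyrp1, chr4:80834155-80834183, plus strand: tggggagggagTCATGTGctgcctagtag
Dct, chr14:118052380-118052408, minus strand: tgcacttagggTCATGTGctaacaaagag
Dct, second match, chr14:118052461-118052489, minus strand: cttggctgggaCACATGAgcccaataaag
Slc24a5, chr2:125068103-125068126, plus strand: aggagactgctCACATGAttcagc
The motif began 22 bases before the RefSeq start in Tyr, 47 in Tyrp1, 151 and 232 in Dct and 13 in Slc24a5. The Tyrp1 match lies inside the gene as the deposited table bounds it, since the table's start is upstream of the RefSeq start. A match of letters is a description and does not show that a factor was bound in these hearts.

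Dct had 1238 and 626 counts at 12 months, against 547 and 686 counts at 8 weeks. After scaling for depth these are 22.4 and 11.9 CPM at 12 months and 10.5 and 10.9 CPM at 8 weeks. The first 12-month library alone stands well above the others, and the interval of the second (10.0 to 13.8 CPM) overlaps both 8-week intervals (8.85 to 12.5 and 9.32 to 12.6 CPM). Dct averaged 2.71 ± 1.13 FPKM at 12 months and 1.63 ± 0.0462 FPKM at 8 weeks (SD, n = 2 each), and its log2 fold change was 0.68 ± 0.29. The log2 fold change was 0.14 without 12 months replicate 1 and 1.07 without 12 months replicate 2, so its size rests on the first library. Dct was by far the most abundant of the 3 enzymes on the FPKM scale at both ages. Its deposited value covers 4 transcripts, the longest of them a single exon of 3459 nt, so spliced and unspliced RNA are not told apart.

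Tyr had 10 and 18 counts at 12 months, against 10 and 16 counts at 8 weeks. Tyrp1 had 10 and 14 counts at 12 months, against 17 and 12 counts at 8 weeks. Each of these values amounts to 2 to 4 fragments in a library, 4 of the 8 values are at or under the floor of 12 counts, and the ages overlap in both genes. The pooled ratios of 12 months to 8 weeks were 1.15 for Tyr (counting interval 0.357 to 4.47) and 0.881 for Tyrp1 (0.253 to 3.17), so a change of several-fold in either direction was not detectable at this depth. The interval for Mlana starts at 21.5. Mlana was chosen for its large difference and these intervals cover counting error only, so nothing is read from setting them side by side.

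Pmel encodes the protein whose fibrils form the scaffold on which melanin is laid down. It had 32 and 46 counts at 12 months, against 47 and 44 counts at 8 weeks, with overlapping ages. The pooled ratio was 0.913, with a counting interval from 0.482 to 1.76. Pmel shares 34 exon bases with Cdk2 and 105 with Dgka, both on the opposite strand, out of 2292, and whether the counting used strand is not given in the sources.

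The transporters were the other low members. Slc24a5, an ion exchanger of the melanosome or trans-Golgi network that is needed for normal pigment, had 39 and 41 counts at 12 months, against 87 and 156 counts at 8 weeks. Both 12-month libraries lay below both 8-week libraries, and the 8-week libraries differed from each other as well (1.67 and 2.47 CPM). The pooled ratio was 0.351 (counting interval 0.2 to 0.587), and the log2 fold change was -1.45 ± 0.38 in the fit with a minimum of 0.1 FPKM. Of its exon bases, 39.5% (921 of 2330) also belong to Myef2, a gene on the opposite strand with 667 and 797 counts at 12 months and 888 and 1186 counts at 8 weeks. Myef2 had a log2 fold change of -0.40 ± 0.15 (adjusted p = 0.0812), and whether reads of the 2 genes were mixed was not tested. Slc45a2, a transporter that keeps the melanosome's pH fit for tyrosinase, had 0 and 8 counts at 12 months, against 19 and 8 counts at 8 weeks. Its values amount to 0 to 5 fragments, its ages overlap, and the pooled ratio of 0.315 has a counting interval from 0.0308 to 1.6.

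Mitf, the basic helix-loop-helix factor that drives the melanocyte program and is also made in heart muscle, macrophages and mast cells, was the most abundant of the 9 at both ages on the FPKM scale. It had 1986 and 1707 counts at 12 months, against 1778 and 2105 counts at 8 weeks. In CPM these were 35.9 and 32.3 at 12 months and 34.2 and 33.3 at 8 weeks, so the ages overlap and span little. The log2 fold change was 0.02 ± 0.09, and from -0.08 to 0.09 when single libraries were left out. Its paralogs Tfeb and Tfe3, regulators of lysosome genes, had log2 fold changes of -0.19 ± 0.09 and -0.21 ± 0.11 and did not pass the test (adjusted p = 0.141 and 0.174). The deposited values are per gene, so the melanocyte isoform of Mitf was not analysed here.

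Kit is the receptor for stem cell factor and acts in melanocytes, mast cells, blood progenitors and some endothelial cells. It had 434 and 441 counts at 12 months, against 677 and 728 counts at 8 weeks. Both 12-month libraries (0.806 and 0.887 FPKM) lay below both 8-week libraries (1.30 and 1.16 FPKM), and the log2 fold change was -0.60 ± 0.13. In a whole heart, fewer cells of a type and less RNA per cell cannot be told apart. All 3 mast cell markers above the minimum passed it only through their 12-month values, with 8-week means below 1 FPKM. In edgeR none of them was called, where 37.6% of all tested genes were, while all 3 had an unadjusted p below 0.05. Cma1, a chymase, had a log2 fold change of 1.16 ± 0.37 (adjusted p = 0.0501), Tpsb2, a tryptase, of 1.58 ± 0.55 (adjusted p = 0.0679) and Mcpt4, another chymase, of 1.05 ± 0.42 (adjusted p = 0.0977). DESeq2 called 2 of them (Cma1 at 0.0352 and Tpsb2 at 0.0204), each limma fit called 1, and edgeR without 12 months replicate 1 called 3. The 9 listed mast cell markers summed to 4.76 and 9.74 FPKM at 12 months and to 2.98 and 3.74 FPKM at 8 weeks, with 1 or 2 of them at 0 in each library. For those under the minimum, fits with a lower minimum or none moved both ways. Cpa3, Tpsab1 and Fcer1a had log2 fold changes of 1.51, 2.21 and 1.17, and Hdc, Ms4a2 and Mrgprb2 of -0.30, -0.19 and -1.09. None of these was called, and the ages overlapped in all but Cpa3. Of 12 endothelial markers, a list added after the values were seen, 11 were called lower, where 17.5% of all tested genes were. The other 1 was called higher, where 20.1% were. The markers of this list had a median log2 fold change of -1.03. They summed to 204 and 197 FPKM at 12 months and to 393 and 383 FPKM at 8 weeks. Kit thus moved in the direction of the endothelial list, and the part of those cells in its difference was not tested.

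Of the 9 members, 4 (Mlana, Dct, Mitf and Kit) passed the expression minimum. Mlana passed only through its 12-month values and Kit only through its 8-week values, since the mean of the other age was below 1 FPKM in each. Of these 4, the fit over all genes called 2, where 37.6% of all tested genes were called: 1 higher (Mlana), against 20.1% of all, and 1 lower (Kit), against 17.5%. In the fit with a minimum of 0.1 FPKM, which called 22.7% of genes (13.3% higher and 9.32% lower), Slc24a5 was called lower as well. Over all 9 members, both 12-month libraries lay above both 8-week libraries in 2 (Mlana and Dct), as in 23.3% of all 28723 genes, and below them in 2 (Kit and Slc24a5), as in 26.0%. The ages did not overlap in 49.4% of all genes. Since this contrast chose the members, nothing is read from these shares. In order of level on the FPKM scale, the members at 12 months ran Mitf (5.16 ± 0.279), Mlana (3.71 ± 1.86), Dct (2.71 ± 1.13), Kit (0.846 ± 0.0574), Slc24a5 (0.294 ± 0.0223), Pmel (0.291 ± 0.0898), Tyrp1 (0.0723 ± 0.0215), Tyr (0.0337 ± 0.0149) and Slc45a2 (0.024 ± 0.0339; mean ± SD, n = 2). The libraries of Mlana overlap those of Mitf and those of Dct, the libraries of Slc24a5 overlap those of Pmel, and those of Tyr overlap those of Slc45a2. At 8 weeks the order was Mitf, Dct, Kit, Slc24a5, Pmel, Tyrp1, Slc45a2, Mlana and Tyr, with Mlana in place 8 of 9.

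**Figure D3:**
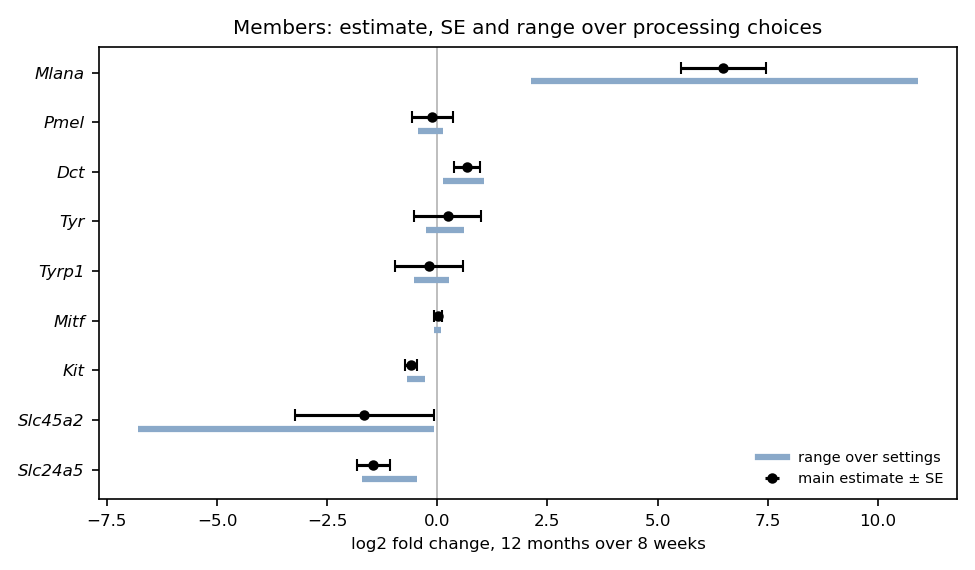
Log2 fold change of each member, 12 months over 8 weeks. Black points with bars are the main estimates ± SE, and blue bars span the values over the other processing choices and left-out libraries. Mlana runs from 2.12 to 10.91 and never crosses 0, Dct from 0.14 to 1.07 and Kit from -0.68 to -0.27, while Pmel, Tyr, Tyrp1 and Mitf have values on both sides of 0.

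Outside the 9, the genes around the pigment cell were tested. Of 42 other pigment cell pathway genes, 25 passed the minimum, 22 of them with an 8-week mean of at least 1 FPKM. Of these, 4 were called higher, where 20.1% of all tested genes were, and 4 lower, where 17.5% were. Both counts are near the shares of all genes, and nothing about the set is read from them. The median log2 fold change of the 25 was -0.15, against 0.01 for all tested genes. Among the lineage's regulators and receptors, 2 of 3 tested genes fell and none rose. Kitl, the stem cell factor that is the ligand of Kit, fell to 3900 and 3443 counts at 12 months, against 6796 and 8387 at 8 weeks (log2 fold change -0.96 ± 0.07, adjusted p = 0.0012). Ednrb, an endothelin receptor that melanoblasts need and endothelial cells also make, fell as well (-0.64 ± 0.09, adjusted p = 0.0042). Erbb3, a neuregulin receptor of neural crest and Schwann cells, did not pass (0.32 ± 0.22, adjusted p = 0.295). Kitl and Ednrb moved in the direction of the endothelial list given above, and its part in their differences was not tested.

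Sox10, Pax3 and Mc1r, named after their values were seen, were low or level. Tfap2a, another listed regulator, was low and lay higher at 12 months (0.939 and 0.455 CPM) than at 8 weeks (0.289 and 0.427 CPM). In the fit with no minimum its log2 fold change was 0.99 ± 0.59, and it did not pass in edgeR (adjusted p = 0.402). Sox10, which switches on Mitf in neural crest cells, had 138 and 177 counts at 12 months, against 192 and 175 counts at 8 weeks, and Pax3 had 13 and 7 counts at 12 months, against 8 and 17 at 8 weeks. Mc1r, the receptor that directs melanocytes to dark pigment, was at 0 in 3 libraries and had 4 counts, about 1 fragment, in the other. Sox10 also marks Schwann cells, whose markers showed no call in the main fit: of 6 tested none passed in edgeR, where 37.6% of all tested genes did. None passed in DESeq2 or limma either, and the median was -0.12. Of the 6, 1 had an unadjusted p below 0.05 in edgeR, S100b, lower at 12 months (-0.37 ± 0.14, adjusted p = 0.0826). With a minimum of 5 FPKM edgeR called S100b lower (adjusted p = 0.0418). Without 12 months replicate 2 its log2 fold change was -0.49. The 10 listed Schwann cell markers summed to 25.5 and 29.0 FPKM at 12 months and to 30.7 and 27.3 FPKM at 8 weeks. Named after its values were seen, Edn3, the endothelin that promotes melanoblast growth, had 291 and 140 counts at 12 months, against 43 and 70 at 8 weeks. It lies under the main minimum. In the fit with a minimum of 0.1 FPKM its log2 fold change was 2.06 ± 0.42 (adjusted p = 0.018), and the adjusted p was 0.0553 without 12 months replicate 1, 0.104 without 8 weeks replicate 1 and 0.0671 without 8 weeks replicate 2.

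Of 12 other melanosome and pigment genes, 6 were tested, 1 rose and none fell, with a median of 0.19. Of the 6, 4 had an 8-week mean of at least 1 FPKM. Of all tested genes, 20.1% rose and 17.5% fell. The gene of this list that rose was Mreg, melanoregulin, which acts in melanosome transfer and in lysosomes of other cells (0.66 ± 0.13, adjusted p = 0.0116). Its adjusted p was 0.0671 without 8 weeks replicate 1 and 0.0835 without 8 weeks replicate 2. Gpnmb, a melanosome glycoprotein also made by macrophages, had 416 and 881 counts at 12 months, against 338 and 285 at 8 weeks, and did not pass in edgeR (1.14 ± 0.39, adjusted p = 0.0642). It averaged 1.75 FPKM at 12 months and 0.757 FPKM at 8 weeks, so it passed the minimum only through its 12-month values. Its log2 fold change was 1.59 without 12 months replicate 1 (adjusted p = 0.00268) and 0.45 without 12 months replicate 2 (adjusted p = 0.214), and DESeq2 called it higher (adjusted p = 0.00762). Macrophage markers moved the same way in part, with 4 of 7 tested called higher, where 20.1% of all tested genes were, and none lower. Among the 4 were Lyve1 (1.03 ± 0.12, adjusted p = 0.00238) and Cd163 (0.89 ± 0.13, adjusted p = 0.00418). Cd68 (0.44 ± 0.16, adjusted p = 0.0738), Csf1r (0.21 ± 0.16, adjusted p = 0.352) and C1qa (-0.15 ± 0.14, adjusted p = 0.428) did not pass. The ages overlapped in Csf1r and C1qa. The list summed to 77.3 and 91.0 FPKM at 12 months, against 70.2 and 59.3 FPKM at 8 weeks. The part of macrophages in the Gpnmb difference was not tested. Without 8 weeks replicate 2, and with a minimum of 5 FPKM, 2 macrophage markers were called. Tpcn2, a channel of the melanosome membrane (-0.35 ± 0.15, adjusted p = 0.115), and Rab27a, which tethers melanosomes to the cell's transport motors (0.24 ± 0.19, adjusted p = 0.357), did not pass. Oca2 and Gpr143, further melanosome membrane proteins, had at most 12 and 4 counts in any library.

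Genes that build melanosomes and related lysosomal organelles in many cell types moved both ways. Of 14 tested, 3 rose (20.1% of all tested genes did), 2 fell (17.5% did) and 9 did not pass, with a median of -0.18. Bloc1s1, a subunit of the BLOC-1 sorting complex, fell (-0.83 ± 0.09, adjusted p = 0.00217), as did Hps3 of the BLOC-2 complex (-0.52 ± 0.10, adjusted p = 0.0122). Ap3b1, of the AP-3 adaptor (0.40 ± 0.09, adjusted p = 0.0173), and the BLOC-1 subunits Bloc1s6 (0.38 ± 0.10, adjusted p = 0.0293) and Bloc1s5 (0.53 ± 0.15, adjusted p = 0.035) rose. The calls of Hps3, Ap3b1 and Bloc1s6 were lost without either 8-week library (adjusted p from 0.0508 to 0.151), and that of Bloc1s5 without 8 weeks replicate 2 (0.133) or 12 months replicate 1 (0.08).

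**Figure D4:**
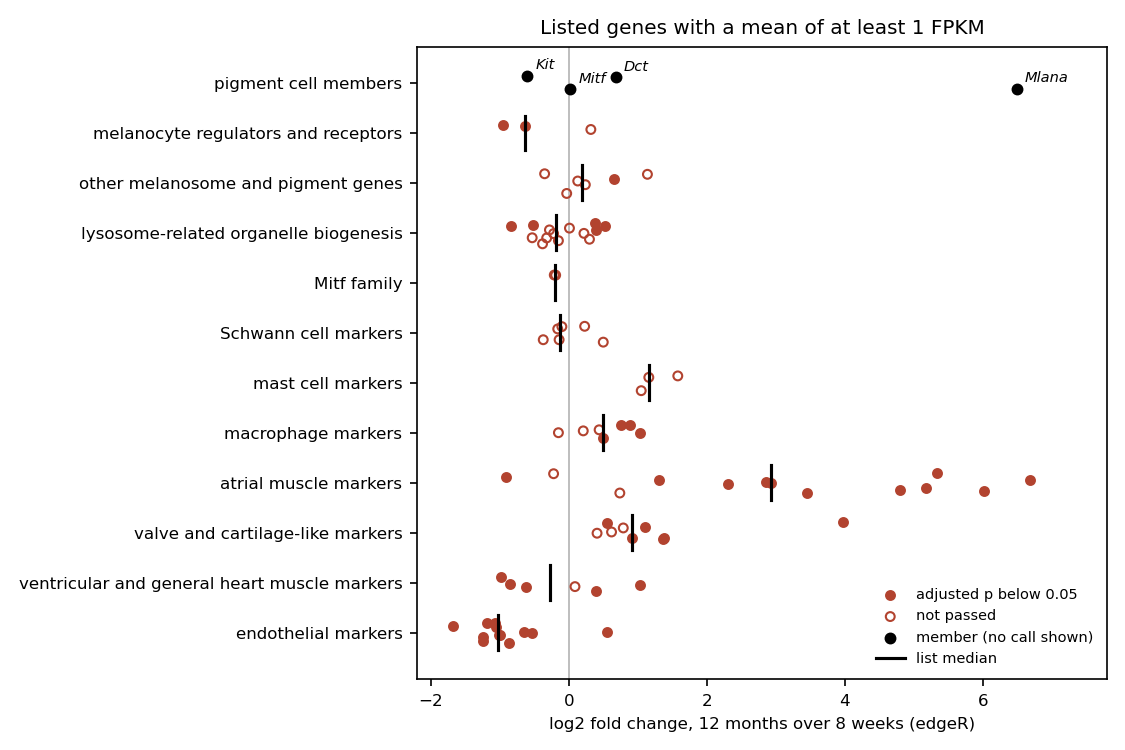
Log2 fold changes, 12 months over 8 weeks, of listed genes with a mean of at least 1 FPKM. Red points are single genes (filled where the adjusted p was below 0.05), black lines are list medians and black points are the members, shown without their calls because this contrast chose them. Mlana at 6.49 lies near the top of the range of the atrial markers (-0.91 to 6.68, median 2.93). The tested genes of the pigment cell pathway lists run from -0.96 to 1.14. Mlana was chosen for its large fold change, so nothing is read from its place beside the lists.

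None of the 8 keratinocyte and hair follicle markers with values passed the minimum. They summed to 0.735 and 1.08 FPKM at 12 months and to 0.797 and 0.659 FPKM at 8 weeks, and 2 or 3 of them were at 0 in each library. Krt10, a suprabasal keratin, and Trp63, a factor of basal epithelium, lay above the floor in all 4, at 39 and 43 counts and at 31 and 69 counts at 12 months, against 61 and 64 counts and 40 and 56 counts at 8 weeks. Krt14, a basal keratin also found in other epithelia, had 24 and 30 counts at 12 months, against 3 and 0 counts at 8 weeks, and its partner Krt5 had 4 and 0 counts at 12 months and none at 8 weeks. The edgeR fit with a minimum of 0.1 FPKM called Krt14 higher (4.13 ± 1.15, adjusted p = 0.0489), as it did 13.3% of genes. That call was lost with no minimum (adjusted p = 0.0966) and in both limma fits. Ventricular and general heart muscle markers moved both ways. Of 6, 2 were called higher (Ryr2 at 1.03 ± 0.09 and Actn2 at 0.40 ± 0.11, adjusted p = 0.00128 and 0.0296), where 20.1% of all tested genes were. Lower were 3 (Myl2 at -0.98 ± 0.09, Tnni3 at -0.85 ± 0.09 and Tnnt2 at -0.62 ± 0.08, adjusted p from 0.00156 to 0.00313), where 17.5% of all were. The call of Actn2 was lost without 8 weeks replicate 1 (adjusted p = 0.131) or 8 weeks replicate 2 (0.173).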

How the data were processed

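Per the file headers, the authors deposited an FPKM value and an estimated count per gene for 4 libraries, and every such expected count is whole. The submitters' processing notes name GRCm38, StringTie 2.1.6, HISAT2 2.2.1, cutadapt 1.9, edgeR and DESeq2, without roles or settings. From the deposited counts, 12027 genes with a mean of at least 1 FPKM were tested with edgeR 4.0.16 in R 4.3.3 (quasi-likelihood, TMM, intercept and age, Benjamini-Hochberg over all tested genes, threshold 0.05); members below that mean took their log2 fold change from a fit with a minimum of 0.1 FPKM or none. SE is the log2 fold change divided by the root of F. With 2 libraries an age there were 2 residual degrees of freedom, and p-values measure only the spread between libraries that may be technical. Members and lists were chosen with earlier results of these data known. Named genes are the members, up to 4 of each list with the smallest p, called genes moving against their list and the 5 nearest to Mlana. Bloc1s5, Edn3, Sox10, Pax3, Mc1r, Tfap2a, Oca2, Gpr143, Krt14, Krt10, Krt5, Trp63, Myh6, Myef2, Nppa, Bmp10, Chad, Sox9, Acan, Hapln1, Col2a1, Rab32, Cd68, Csf1r, C1qa, Cpa3, Tpsab1, Fcer1a, Hdc, Ms4a2, Mrgprb2 and the endothelial list were added after values were seen. Alternatives used limma 3.58.1 and DESeq2 1.42.0. Counting intervals are exact 95% Poisson intervals. The fits were tested on simulated data. Asip, Krtdap and Krt71 were not analysed here.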

Additional observations from a re-analysis of the deposited data

How the results depend on the processing

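Depth, at about 4 counts a fragment, limits Tyr, Tyrp1, Slc45a2 and the 8-week values of Mlana most. No paired analysis was possible because the sample titles of the 2 ages share only the number 5, and replicates were numbered in accession order. With a minimum mean of 5 FPKM, fewer genes were tested: 2990 genes were called, 1469 of them higher, with 0 members and 5 pathway genes. Leaving out single libraries gave 2077 to 4658 called genes in all (1187 to 2514 higher, 890 to 2144 lower), 1 to 3 members, 3 to 9 pathway genes and 19 to 29 markers of other cell types, against 4520 (2416 and 2104), 2, 8 and 26 with all 4. The lowest totals came without 8 weeks replicate 1 (2077) and without 8 weeks replicate 2 (2307). With limma on log2(FPKM + 1) or log2(FPKM + 0.1), 1 member was called. Kit was not called in either limma fit or without 12 months replicate 1, 8 weeks replicate 1 or 8 weeks replicate 2. Dct was called higher with DESeq2 and without 12 months replicate 2, and Slc24a5 lower with a minimum of 0.1 FPKM. Rab32 had a log2 fold change of -1.29 without 12 months replicate 2 and 0.81 without 12 months replicate 1, against 0.13 with all libraries. The cause was not tested. Dividing the counts by 4, an alternative chosen after seeing the data, called 4541 genes, 2 members and 8 pathway genes. The log2 fold change of Mlana was 10.91 without 8 weeks replicate 1, where the remaining 8-week library has no count, so that value is no bound.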
